A study of Rattus norvegicus with 4 samples.

Results

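The inhibin, activin and follistatin system was examined in cultured rat granulosa cells, the somatic cells that surround the oocyte and make the hormones of the ovarian follicle. It was taken as 5 genes, chosen by symbol: Inha, Inhba, Inhbb, Fst and Acvr2a. Every probe set annotated to exactly 1 of these symbols was read, which gave 7 of the 31042 rat probe sets on the array and 5 of 14217 named genes. Inhba was read by a probe set brighter in mean signal, 1383486_at, and a dimmer one, 1369012_at. Fst likewise had a brighter one, 1372750_at, and a dimmer one, 1387843_at, and the other genes had 1 each.

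The cells came from immature, estradiol-treated female Sprague-Dawley rats of 23 to 25 days and were plated without serum in the medium, on dishes coated with 1% serum. An adenovirus was given for 4 h, and 100 ng/ml of FSH (follicle-stimulating hormone) or vehicle for the next 24 h. The 4 groups had 1 array each: FOXOA3 FSH, in which the virus carried constitutively active FOXO1; FOXOA3-mDBD FSH, in which it carried the same protein mutated in the DNA-binding domain; GFP FSH, with green fluorescent protein as the control; and GFP vehicle, with the same control virus and no hormone. All groups therefore shared the estradiol treatment of the donors and an adenoviral infection, and no uninfected cells were among them. With 1 array per group no difference has a replicate check, and no test or p-value can be given. A gene is counted as higher or lower from a 2-fold difference, and smaller folds are given as values that are not counted.

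Inhibins and activins are dimers of the transforming growth factor beta family. The alpha subunit encoded by Inha joins the beta A subunit (Inhba) to form inhibin A or the beta B subunit (Inhbb) to form inhibin B, while dimers of beta subunits alone are activins. Activin binds a type II receptor such as that encoded by Acvr2a, which recruits a type I receptor that phosphorylates SMAD2 and SMAD3, and follistatin (Fst) is a secreted protein that binds activin and blocks its access to the receptor. Granulosa cells are a main source of inhibin in the female, and inhibin lowers the release of FSH by the pituitary.

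All 7 probe sets lay above the floor of 100.5, the median signal of the rat probe sets, on every array. The granulosa transcription factor Foxl2 was above it on every array too, at 4297, 994, 3536 and 5546 on FOXOA3 FSH, FOXOA3-mDBD FSH, GFP FSH and GFP vehicle. Of 8 granulosa markers on the array, 7, 6, 7 and 6 were above the floor in that order, with Esr2 under it on all. Their summed signal was 28533, 28323, 65429 and 27964. It was highest on GFP FSH, as were the inhibin subunits described below, and hardly differed among the other arrays. Single markers such as Foxl2 did differ there. Against GFP FSH, 4 of the 7 measured markers were lower on FOXOA3 FSH and 0 higher, beside 6.99% and 11.1% of all genes. On FOXOA3-mDBD FSH, 5 of the 7 were lower than on GFP FSH and 0 higher, beside 19.1% and 12.5% of all genes. Between GFP FSH and GFP vehicle, 4 of the 7 measured markers were higher and 0 lower, beside 6.84% and 11.1% of all genes. Among the higher ones, Cyp19a1 was at 13042 on GFP FSH and 35.0 on GFP vehicle, and Nr5a2 at 10820 and 2210. The part of this sum in the results for the subunits was not tested. The gap junction gene Gja1, at 17424, 21964, 31458 and 18342, made up the largest share of each sum. In RNA from whole cultures, fewer cells of a type and less RNA per cell cannot be told apart. Summed signals of 10 theca, stroma and smooth muscle markers were 21318, 833, 1472 and 7565, with the theca genes Cyp17a1 and Insl3 and the collagen gene Col1a1 under the floor throughout. The matrix gene Dcn, at 12504, 206, 485 and 624, the collagen gene Col3a1, at 7556, 82.0, 170 and 2607, and smooth muscle actin (Acta2), at 594, 215, 192 and 3711, carried most of these sums, and their part in the results was not tested. Those of 6 leukocyte markers were 2879, 1265, 959 and 2466, with Ptprc, Cd68, Cd3e and Itgam under the floor on every array. Cd14, at 2577, 1012, 727 and 2167, made up most of each sum, and Csf1r was above the floor on every array but GFP FSH. Endothelial markers (4) summed to 391, 497, 267 and 471, oocyte markers (5) to 775, 1200, 1064 and 443, and surface epithelium markers (3) to between 77.5 and 188.9. The endothelial genes Pecam1 and Vwf, the oocyte genes Bmp15 and Zp1 and all 3 epithelial genes were under the floor on every array, whereas endothelial Kdr, at 194, 236, 123 and 376, and oocyte Gdf9, at 379, 478, 262 and 130, and Zp2, at 249, 401, 622 and 263, were above it on all 4. Bacterial poly-A spike transcripts had a geometric mean of 22.6, 539, 395 and 21.4 on the 4 arrays, so that FOXOA3-mDBD FSH and GFP FSH formed a pair and FOXOA3 FSH and GFP vehicle another.

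The start regions of the members are shown because the 3 subunit genes were higher together with FSH and Acvr2a was not. RefSeq windows on build GRCr8, from 250 bases before to 50 after 1 annotated start, were available for 4 members. That of Inha lies at chr9:84442859-84443158 on the plus strand, that of Inhba at chr17:53804459-53804758 and that of Inhbb at chr13:33089324-33089623, both on the minus strand, and that of Acvr2a at chr3:53614536-53614835 on the plus strand. Each is written 5' to 3' along its gene, with capitals for a match on either strand to one of 7 motifs.
Inha: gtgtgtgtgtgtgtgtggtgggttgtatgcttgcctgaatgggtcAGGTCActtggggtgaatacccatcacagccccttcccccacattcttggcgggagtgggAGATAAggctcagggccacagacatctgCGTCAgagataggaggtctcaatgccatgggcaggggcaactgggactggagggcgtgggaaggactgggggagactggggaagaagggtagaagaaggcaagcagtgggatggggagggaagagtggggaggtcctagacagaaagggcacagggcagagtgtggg
Inhba: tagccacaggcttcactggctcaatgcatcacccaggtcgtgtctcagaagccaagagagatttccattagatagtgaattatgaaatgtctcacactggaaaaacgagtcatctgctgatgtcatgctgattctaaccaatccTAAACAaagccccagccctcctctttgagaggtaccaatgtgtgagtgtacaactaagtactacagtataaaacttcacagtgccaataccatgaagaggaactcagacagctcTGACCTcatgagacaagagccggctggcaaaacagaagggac
Inhbb: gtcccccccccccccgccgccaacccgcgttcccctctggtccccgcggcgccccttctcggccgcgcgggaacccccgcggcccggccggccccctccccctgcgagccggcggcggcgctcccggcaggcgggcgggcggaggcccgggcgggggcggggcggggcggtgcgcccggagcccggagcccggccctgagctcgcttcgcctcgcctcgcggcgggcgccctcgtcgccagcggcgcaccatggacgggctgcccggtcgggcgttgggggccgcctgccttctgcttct
Acvr2a: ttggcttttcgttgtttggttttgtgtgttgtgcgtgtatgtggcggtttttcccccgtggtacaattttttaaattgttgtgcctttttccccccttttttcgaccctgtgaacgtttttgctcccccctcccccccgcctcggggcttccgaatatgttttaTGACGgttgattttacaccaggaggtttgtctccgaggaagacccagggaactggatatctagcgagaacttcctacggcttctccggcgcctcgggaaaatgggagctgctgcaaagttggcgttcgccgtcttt

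The motifs were the cAMP response element TGACGTCA and its shorter form TGACG, the NR5A site AAGGTCA, the FOXO core GTAAACA and the GATA site AGATAA. The nuclear receptor motif AGGTCA, which is contained in the NR5A site, and TAAACA, which is contained in the FOXO core, were added after the windows had been seen. The Inha window held TGACG on the reverse strand 117 bases before the start, AGATAA 145 bases before it and AGGTCA 205 bases before it. That of Inhba held TAAACA 106 bases before the start and AGGTCA on the reverse strand 9 bases after it, that of Acvr2a held TGACG 86 bases before the start, and that of Inhbb held none. Of 33469 windows in the table, 21.2% held TGACG, 11.6% AGATAA, 16.2% AGGTCA and 13.7% TAAACA. The full-length motifs TGACGTCA, AAGGTCA and GTAAACA were in no member's window and in 1.83%, 4.61% and 3.78% of all windows. The Inhbb window was 84.3% G and C, with 49 CG pairs, and those of Inha, Inhba and Acvr2a were 59.0%, 45.7% and 51.0%, against a median of 51.7% over all windows. A match is a string of letters and not a shown binding site, and other starts of these genes were not searched. In the Inhbb window the 50 bases after the annotated start begin with the letters atg. Whether the annotated starts are those of transcription was not checked, so a window may lack the promoter, and a window without a match does not describe it.

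Inha, the alpha subunit, had a signal of 11433 on FOXOA3 FSH, 4267 on FOXOA3-mDBD FSH, 29569 on GFP FSH and 9571 on GFP vehicle. It was highest on GFP FSH and lowest on FOXOA3-mDBD FSH, and FOXOA3 FSH and GFP vehicle lay within 1.19-fold of each other. The beta B subunit gene Inhbb had signals of 4235, 3135, 11519 and 993 in the same order of arrays. It too was highest on GFP FSH, but GFP vehicle was its lowest array, and the 2 FOXO1 arrays lay between at signals 1.35-fold apart.

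Inhba, the beta A subunit, was read by 2 probe sets that differed. The brighter had signals of 12609, 11911, 25593 and 10189 on FOXOA3 FSH, FOXOA3-mDBD FSH, GFP FSH and GFP vehicle. The dimmer had 1726, 4281, 15819 and 1153. On both, GFP FSH was the highest and GFP vehicle the lowest array, but the highest was 2.51-fold above the lowest on the first and 13.7-fold on the second. The order of the 2 FOXO1 arrays was also turned, with 1.06-fold between them on the first and FOXOA3-mDBD FSH 2.48-fold above FOXOA3 FSH on the second. What part of the transcript each covers is not given in the sources used here.

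Fst, the activin-binding protein, had the narrowest range of the members by its brighter probe set. That probe set had signals of 4212, 2574, 3800 and 2986 in the order used above, all within 1.64-fold. The dimmer had 2832, 1673, 4871 and 2283, a range of 2.91-fold. FOXOA3-mDBD FSH was the lowest array on both, while FOXOA3 FSH was highest on the first and GFP FSH on the second.

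Acvr2a, the type II activin receptor, had signals of 1782 on FOXOA3 FSH, 3641 on FOXOA3-mDBD FSH, 436 on GFP FSH and 625 on GFP vehicle. GFP FSH, the highest array for the subunits, was its lowest. Both FOXO1 arrays stood above both GFP arrays, and GFP FSH lay 1.44-fold under GFP vehicle.

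**Figure D1:**
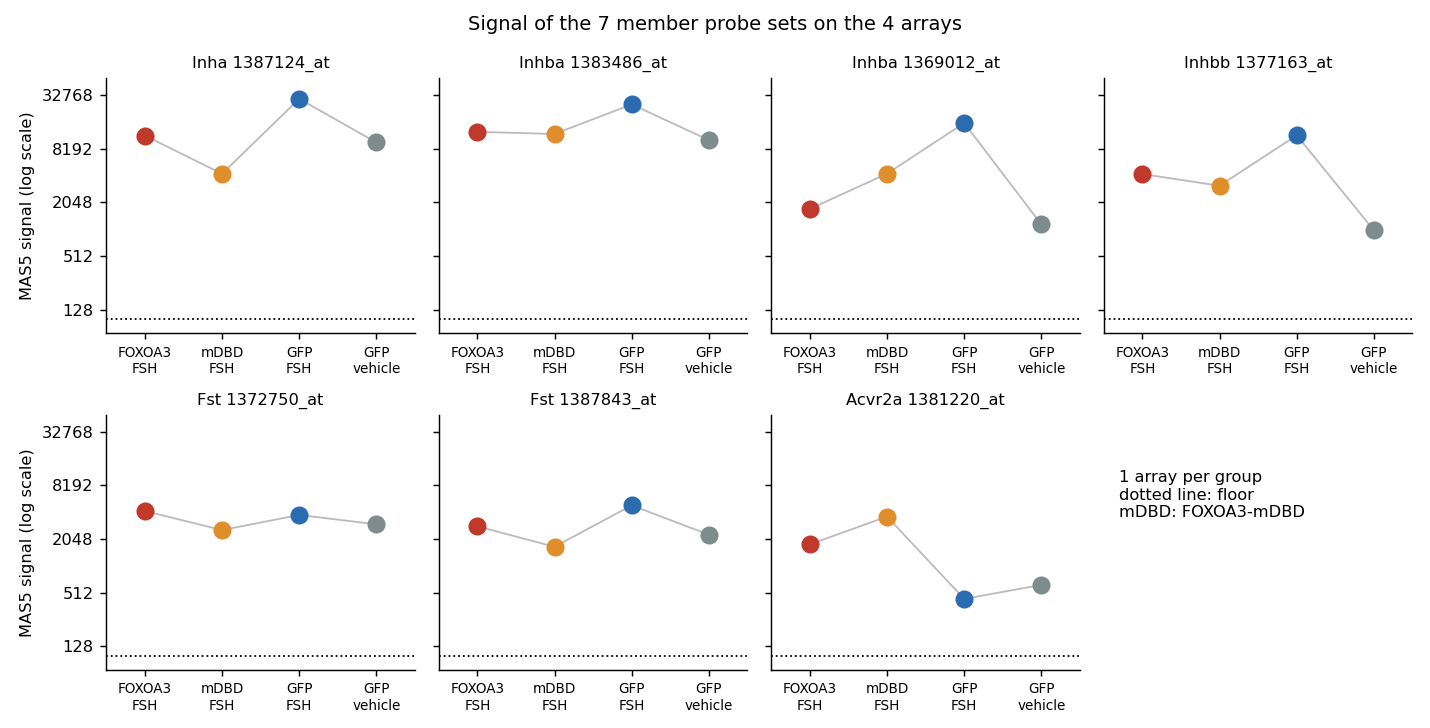
MAS5 signal (vertical axis, log scale) of each member probe set on FOXOA3 FSH, FOXOA3-mDBD FSH, GFP FSH and GFP vehicle, 1 point per array, with the floor of 100.5 as a dotted line. The subunit genes Inha, Inhba and Inhbb peak on GFP FSH, whereas Acvr2a is lowest there at 436 and highest on FOXOA3-mDBD FSH at 3641.

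The effect of the hormone alone was read from GFP FSH against GFP vehicle. All 3 subunit genes were higher with FSH, and Fst by its brighter probe set and Acvr2a were within 2-fold. Inhbb was 11.6-fold higher, with a log2 ratio of 3.54 that exceeded the ratios of 99.7% of measured genes. Inha was 3.09-fold higher. Inhba was 2.51-fold higher by the brighter probe set, though within 2-fold under loess and quantile normalization, and 13.7-fold by the dimmer. For Fst the probe sets straddled the threshold, at 1.27-fold and 2.13-fold, and the second was within it at 1.98-fold with quantile normalization and 1.93-fold with loess. Acvr2a was 1.44-fold lower. Counted by the brighter probe set of each gene, 3 of 5 members were at least 2-fold higher and 0 lower, against a background of 6.84% higher and 11.1% lower among the 9578 measured genes. The median log2 ratio was 1.33 over the members and -0.003 over all genes.

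The log2 ratio of Inha was 1.91 below that of Inhbb and 2.15 below that of the dimmer Inhba probe set, but 0.30 above that of the brighter Inhba probe set. The Inha signal on GFP FSH was 94.0% of the highest rat signal on that array, and that of the brighter Inhba probe set was 81.4%, whereas the dimmer Inhba probe set stood at 50.3% and Inhbb at 36.6%. The subunit probe sets nearer the top of the array's range thus had the smaller ratios, and the part of that nearness was not tested. Bright genes in general had higher signals on GFP FSH: a loess curve through all genes stood at 0.50 in log2 ratio at the brightness of Inha, and at 0.15 at that of Inhbb. With that curve subtracted, Inha was 2.18-fold higher, the brighter Inhba probe set 1.79-fold, the dimmer Inhba probe set 12.1-fold and Inhbb 10.5-fold. These 2 arrays differ in their spikes, and the 3' to 5' ratio of the beta-actin control was 12.0 on GFP FSH and 5.15 on GFP vehicle, and that of GAPDH 2.46 and 2.32.

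**Figure D2:**
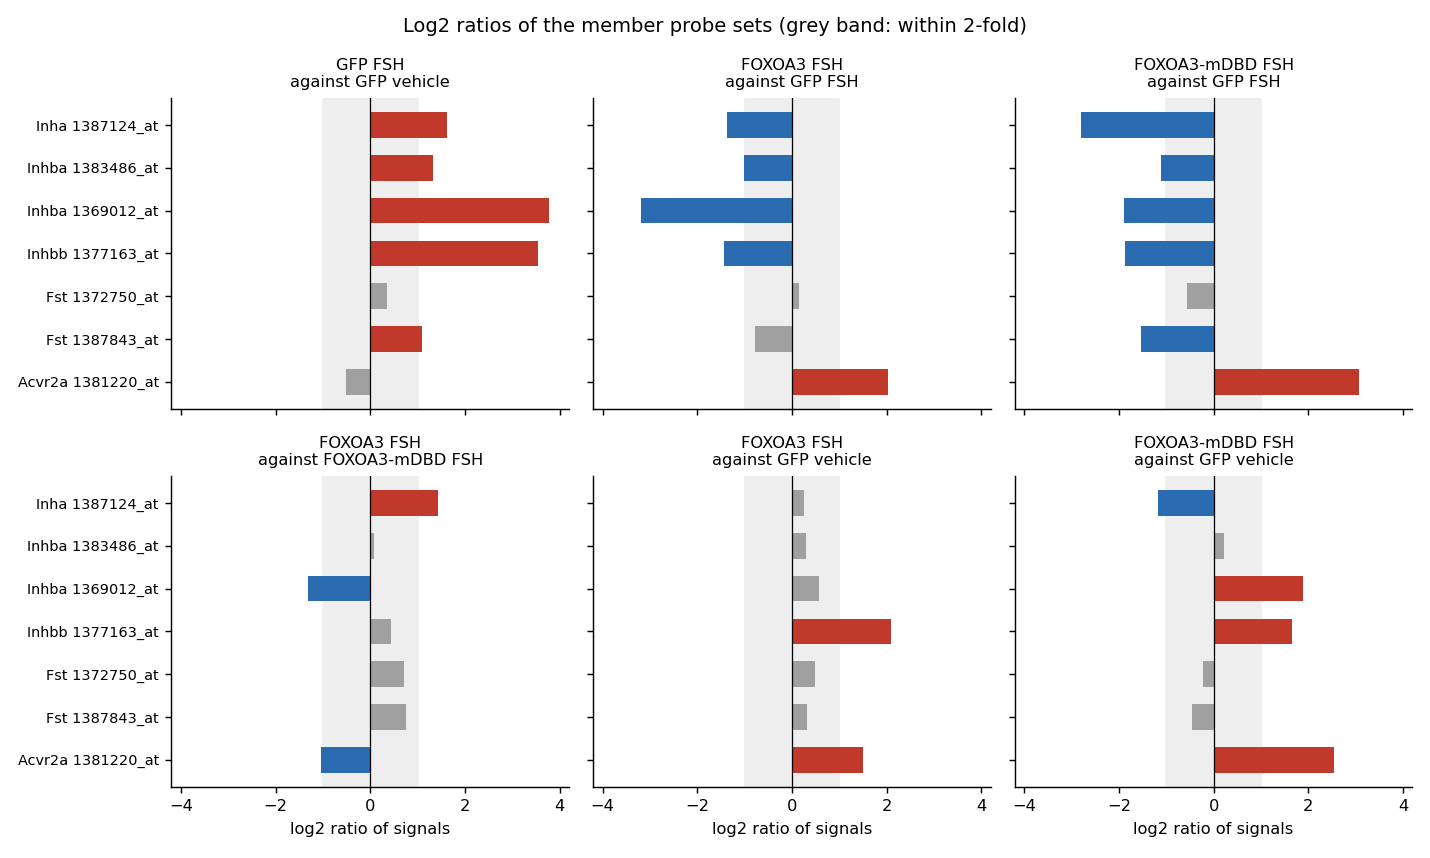
Log2 ratio of signals (horizontal axis) of each member probe set in 6 comparisons, 1 panel each. Red bars are at least 2-fold higher in the first-named group, blue bars at least 2-fold lower, and grey bars lie within 2-fold; in the comparison of FOXOA3-mDBD FSH with GFP FSH, Inha stands at -2.79 and Acvr2a at 3.06.

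FOXOA3 FSH against GFP FSH asks what active FOXO1 does in the presence of the hormone. The 3 subunit genes were lower with FOXOA3 and Acvr2a was higher, and the Fst probe sets stayed within 2-fold on opposite sides of no change. Inha had a signal of 11433 with FOXOA3 and 29569 with GFP, 2.59-fold lower. Inhbb was 2.72-fold lower, and Inhba 2.03-fold lower by the brighter probe set and 9.17-fold by the dimmer. Acvr2a was 4.09-fold higher, with a log2 ratio above those of 97.8% of genes. Fst was 1.11-fold higher by the brighter probe set and 1.72-fold lower by the dimmer. By the brighter probe sets 1 of 5 members was higher and 3 were lower, against a background of 11.1% higher and 6.99% lower among 9941 genes, and the median log2 ratio was -1.02 over the members and 0.04 over all genes.

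The size of the lower subunit signals depended on the scaling of the arrays. The loess curve stood at -0.69 at the brightness of Inha, that is, bright genes in general had lower signals on FOXOA3 FSH. With loess the log2 ratio of Inha was -0.68 and that of the brighter Inhba probe set -0.34, and with quantile normalization they were -0.72 and -0.37, all within 2-fold. Inhbb stayed beyond 2-fold at -1.07 and -1.10, as did the dimmer Inhba probe set at -2.92 under both, and Acvr2a at 2.01 and 1.98. The highest rat signal was 19549 on FOXOA3 FSH and 31458 on GFP FSH, and these arrays differ in spike state.

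**Figure D3:**
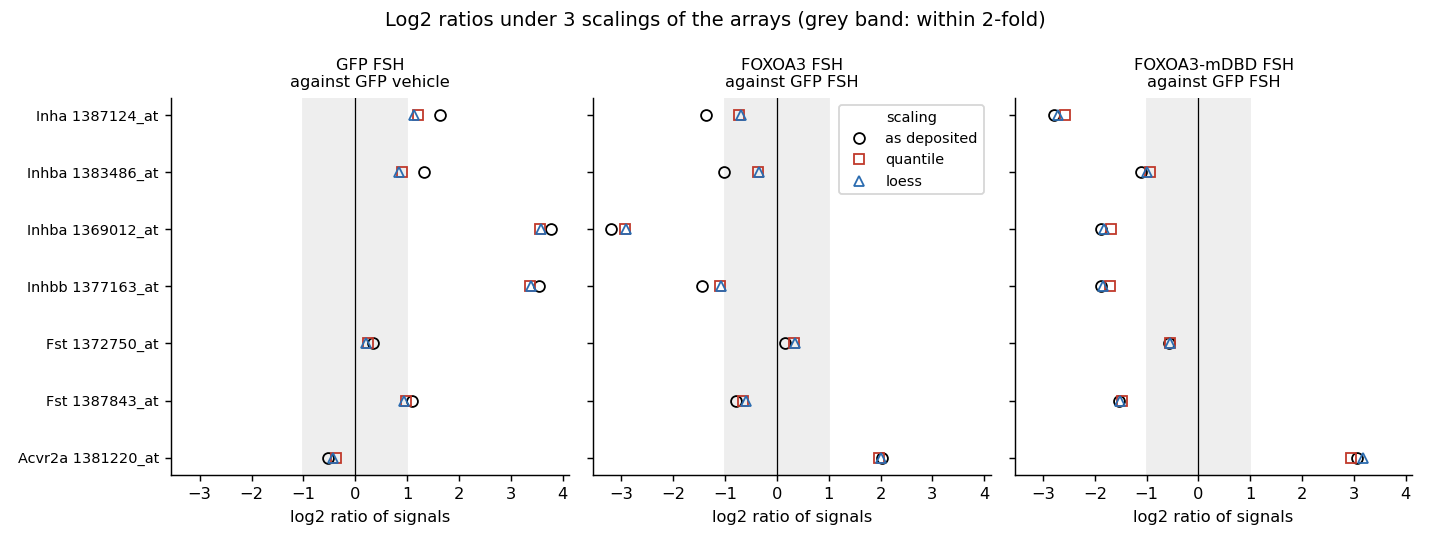
Log2 ratio of signals (horizontal axis) of each member probe set in the 3 comparisons that use the GFP FSH array, with the deposited scaling (circles), quantile normalization (squares) and loess (triangles). In FOXOA3 FSH against GFP FSH, Inha and the brighter Inhba probe set move into the grey band of less than 2-fold, and in FOXOA3-mDBD FSH against GFP FSH, where both arrays have the same spike state, Inha stays between -2.79 and -2.58.

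FOXOA3-mDBD FSH against GFP FSH puts the same question to the protein with a mutated DNA-binding domain, on 2 arrays alike in their spikes. The subunit genes were lower and Acvr2a higher here too. This comparison shares the GFP FSH array with the 2 above, so that the values stand side by side and are not independent. Inha had a signal of 4267 with FOXOA3-mDBD and 29569 with GFP, 6.93-fold lower, and its loess value was 6.57-fold. Inhbb was 3.67-fold lower. Inhba was 2.15-fold lower by the brighter probe set, at the edge of the threshold, and 3.70-fold by the dimmer. Acvr2a was 8.36-fold higher. Fst was 2.91-fold lower by its dimmer probe set, and its brighter one was within 2-fold at a log2 ratio of -0.56. Of 5 members 1 was higher and 3 were lower by the brighter probe sets, against a background of 12.5% higher and 19.1% lower among 9748 genes, with a median log2 ratio of -1.10 over the members and -0.16 over all genes. After centring on that median of all genes, the brighter Inhba probe set was at -0.94 and no longer 2-fold lower, and quantile normalization also gave -0.94. The beta-actin 3' to 5' ratio was 10.7 on FOXOA3-mDBD FSH and 12.0 on GFP FSH. For GAPDH these ratios were 3.15 and 2.46.

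**Figure D4:**
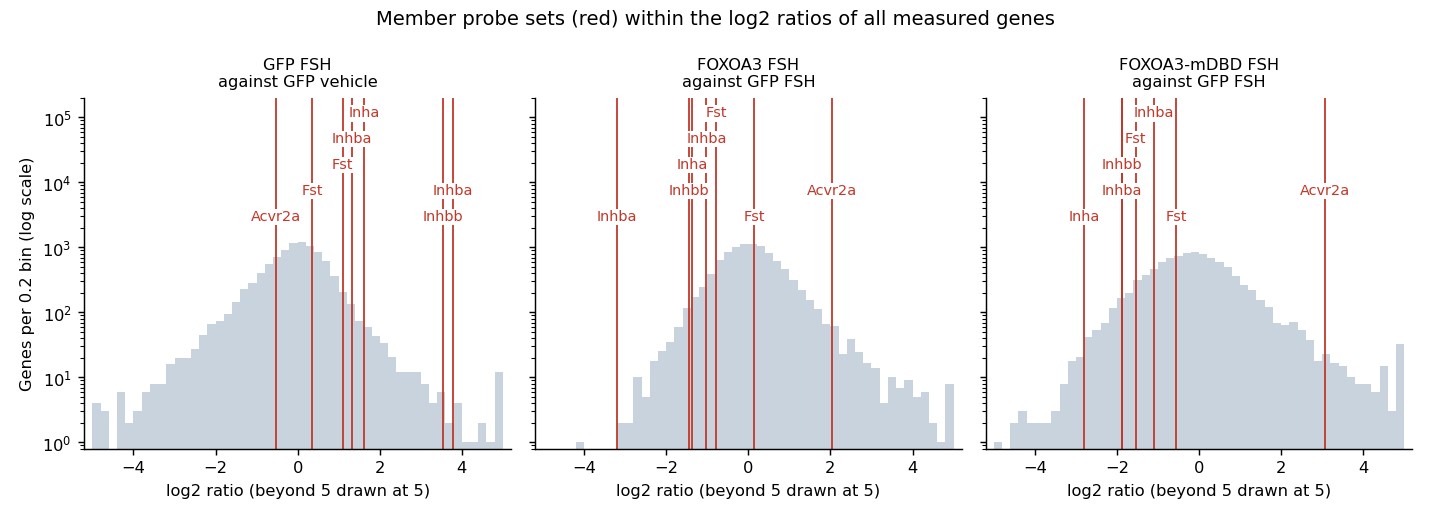
Histograms of the log2 ratios (horizontal axis) of all measured genes, on a log scale of gene counts, for the 3 comparisons that use GFP FSH, with each member probe set as a red line. Inhbb and the dimmer Inhba probe set lie in the upper tail with FSH at 3.54 and 3.78, and Acvr2a lies in the upper tail with FOXOA3 at 2.03 and with FOXOA3-mDBD at 3.06.

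FOXOA3 FSH against FOXOA3-mDBD FSH compares an intact with a mutated DNA-binding domain. The alpha and beta A subunits differed in opposite directions by 1 of the Inhba probe sets. Inha was 2.68-fold higher with FOXOA3, whereas the dimmer Inhba probe set was 2.48-fold lower and the brighter Inhba probe set was within 1.06-fold. Acvr2a was 2.04-fold lower with FOXOA3, but 1.97-fold with loess and 1.95-fold with quantile normalization. Inhbb was 1.35-fold higher with FOXOA3, and the Fst probe sets had log2 ratios of 0.71 and 0.76, all within 2-fold. Of the 5 members 1 was higher and 1 lower, against a background of 19.0% higher and 9.24% lower among 10092 genes, and the median log2 ratio was 0.43 over the members and 0.21 over all genes. These arrays differ in spike state.

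FOXOA3 FSH against GFP vehicle, which share a spike state, shows how far the members under active FOXO1 stood from their signals without hormone. Inha was 1.19-fold higher, the brighter Inhba probe set 1.24-fold and the dimmer at a log2 ratio of 0.58, all within 2-fold, as was Fst at 1.41-fold and 1.24-fold. Inhbb was 4.27-fold higher, and Acvr2a, which FSH alone had left within 2-fold, was 2.85-fold higher. Thus 2 of 5 members were at least 2-fold higher and 0 lower, against a background of 5.32% higher and 4.01% lower among 9904 genes, with a median log2 ratio of 0.50 over the members and 0.01 over all genes. The beta-actin 3' to 5' ratio was 9.79 on FOXOA3 FSH and 5.15 on GFP vehicle.

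FOXOA3-mDBD FSH against GFP vehicle, which crosses the spike state, set the subunits apart. Inha was 2.24-fold lower with the mutant than without hormone, while Inhbb was 3.16-fold higher and the dimmer Inhba probe set 3.71-fold higher. The other Inhba probe set was 1.17-fold higher, and it turned to 1.10-fold lower with loess and 1.03-fold lower with quantile normalization. Acvr2a was 5.82-fold higher, and the Fst probe sets were 1.16-fold and 1.36-fold lower. Among the 5 members 2 were higher and 1 lower, against a background of 13.0% higher and 22.5% lower among 9861 genes, and the medians were 0.23 over the members and -0.17 over all genes. After centring on the median of all genes Inha was at -0.996, just within 2-fold. The beta-actin 3' to 5' ratio was 10.7 on FOXOA3-mDBD FSH and 5.15 on GFP vehicle.

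Further genes of the pathway were read by their brightest probe set. Of 20 listed, 18 were named on the array, and the type I receptor Acvr1b and the co-receptor Tdgf1 were not. The beta subunits Inhbc and Inhbe and the type I receptor Acvr1c were under the floor on all 4 arrays. With FSH, 0 of the 15 measured were higher and 4 lower; over all genes 6.84% were higher and 11.1% lower. The median log2 ratio was -0.35 in the list and -0.003 over all genes. The lower genes were Furin, a convertase that cleaves precursors of this family, 3.20-fold, and the secreted glycoprotein Fstl1 3.15-fold. The others were the inhibitory SMADs Smad6 and Smad7, 2.78-fold and 2.57-fold. A dimmer Smad7 probe set, at 59.2 on GFP FSH and 104 on GFP vehicle, was within 2-fold. Furin had signals of 963 on FOXOA3 FSH, 126 on FOXOA3-mDBD FSH, 254 on GFP FSH and 813 on GFP vehicle. It was thus high on FOXOA3 FSH and GFP vehicle, the 2 arrays with low spikes.

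With FOXOA3 against GFP FSH, 3 of 14 pathway genes were higher and 0 lower, beside 11.1% and 6.99% of all genes, at a median log2 ratio of 0.14 against 0.04 for all genes. They were Igsf1, a membrane protein once described as an inhibin-binding protein, Furin at 3.79-fold and the second activin type II receptor gene Acvr2b at 2.37-fold. Igsf1 had a signal of 4801 on FOXOA3 FSH, 161.5 on FOXOA3-mDBD FSH, 148 on GFP FSH and 167 on GFP vehicle, so that it was bright on 1 array alone. Acvr2b had signals of 244, 77.5, 103 and 192 in that order, near the floor, and unlike Acvr2a it was under the floor on FOXOA3-mDBD FSH.

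With FOXOA3-mDBD against GFP FSH, 1 of 14 pathway genes was higher, Smad7 at 5.29-fold, and 3 were lower, near the 12.5% and 19.1% of all genes, with a median log2 ratio of -0.38 against -0.16 for all genes. The lower genes were Fstl1 at 6.58-fold, the decoy receptor Bambi at 2.98-fold and Furin at 2.01-fold. Among the SMADs that carry the activin signal, Smad2, Smad3 and the common partner Smad4 were within 2-fold in each of the first 3 comparisons, by their brightest probe sets. Of the type I receptors listed, only Acvr1 was measured, and its brightest probe set was within 2-fold there too. Acvr1b could not be read. A dimmer Smad4 probe set had a signal of 910 on FOXOA3-mDBD FSH against 345 on GFP FSH, and a dimmer Acvr1 probe set 521 on FOXOA3 FSH against 204 on GFP FSH, both more than 2-fold apart. Smad3 was 2.17-fold lower in FOXOA3-mDBD FSH against GFP vehicle. Between FOXOA3 FSH and FOXOA3-mDBD FSH, 6 of 14 were higher and 1 lower, beside 19.0% and 9.24% of all genes, with Furin 7.63-fold, Fstl1 7.62-fold, Smad6 at least 2.73-fold, Acvr2b at least 2.43-fold, Pcsk5 2.05-fold and Igsf1 29.7-fold higher, and Smad7 5.21-fold lower. In FOXOA3 FSH against GFP vehicle, Igsf1 was higher and 2 of 15 genes, Fstl1 and Smad7, were 2.72-fold and 2.53-fold lower. Over all genes 5.32% were higher and 4.01% lower. That dimmer Smad7 probe set went the other way within 2-fold, at 133 on FOXOA3 FSH and 104 on GFP vehicle. In FOXOA3-mDBD FSH against GFP vehicle, Smad7 was 2.06-fold higher and 5 of 15 were lower, namely Fstl1 20.7-fold, Furin 6.44-fold, Smad6 at least 3.86-fold, the activin-binding protein gene Fstl3 at least 2.31-fold and Smad3, beside 13.0% higher and 22.5% lower over all genes. The list's median log2 ratio was -0.10 and -0.66 in these 2 comparisons, against 0.01 and -0.17 for all genes.

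**Figure D5:**
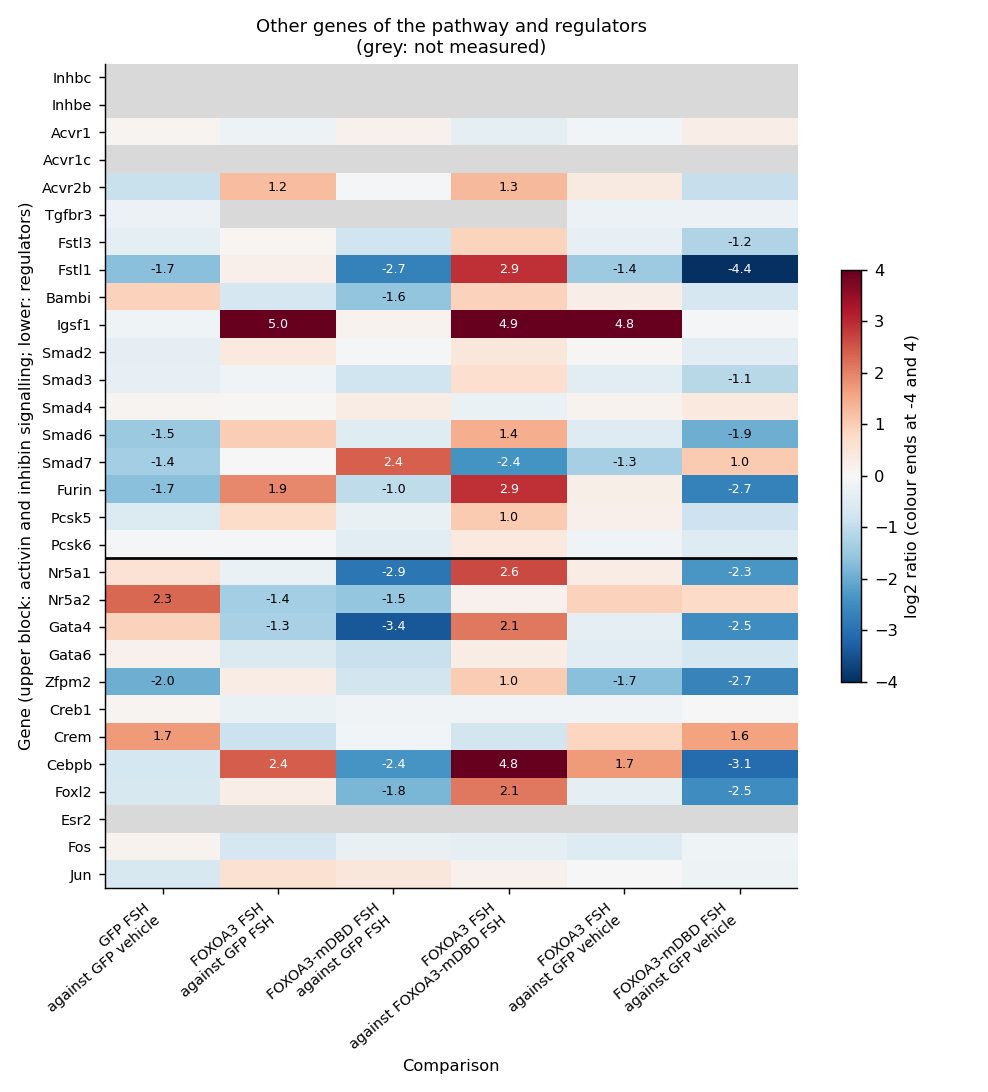
Log2 ratios (colour) of the further pathway genes (upper block) and of factors known to act on inhibin subunit genes (lower block) in 6 comparisons, with the value printed where it is 1 or more in size and grey where both signals were at or under the floor. Igsf1 stands out with FOXOA3, and Gata4, Nr5a1 and Foxl2 are lower with FOXOA3-mDBD.

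Of 12 transcription factors listed as regulators of the inhibin subunit genes, 11 were measured. With FSH 2 were higher, the nuclear receptor Nr5a2 at 4.90-fold and the cAMP-responsive factor Crem at 3.26-fold, and the GATA partner Zfpm2 was 3.87-fold lower, beside 6.84% higher and 11.1% lower over all genes, with a median log2 ratio of 0.15 against -0.003 for all genes. With FOXOA3 against GFP FSH, Cebpb was 5.33-fold higher and Nr5a2 and Gata4 were 2.58-fold and 2.46-fold lower, beside 11.1% higher and 6.99% lower over all genes, with a median of -0.26 against 0.04. With FOXOA3-mDBD against GFP FSH, 5 of 11 were lower and 0 higher, beside 19.1% and 12.5% of all genes, at a median of -0.88 against -0.16. Gata4 was 10.5-fold lower, the steroidogenic factor Nr5a1 7.41-fold, Cebpb at least 5.17-fold, Foxl2 3.56-fold and Nr5a2 2.90-fold. Jun was within 2-fold by its brightest probe set, at 4053 on FOXOA3-mDBD FSH and 2987 on GFP FSH. A dimmer Jun probe set was more than 2-fold lower, at 1688 and 4456, and another was within 2-fold, at 566 and 685. Nr5a1 had signals of 1506, 243, 1800 and 1214 on FOXOA3 FSH, FOXOA3-mDBD FSH, GFP FSH and GFP vehicle, and Gata4 1529, 358, 3762 and 1992. Like Inha, both were highest on GFP FSH and lowest on FOXOA3-mDBD FSH. Nr5a2, at 4195, 3736, 10820 and 2210, had the order of Inhbb by its brightest probe set. Its dimmer ones, at 970, 1343, 3194 and 505 and at 98.8, 110, 613 and 88.9, had FOXOA3-mDBD FSH above FOXOA3 FSH. Creb1, the factor that binds the cAMP response element, was within 1.19-fold in every comparison by its brightest probe set. Between the FOXO1 vectors 5 of 11 were higher with FOXOA3 and 0 lower, beside 19.0% and 9.24% of all genes, with a median of 0.30 against 0.21. In FOXOA3 FSH against GFP vehicle, 1 of 11 was higher and 1 lower, beside 5.32% and 4.01% of all genes, at a median of -0.13 against 0.01. In FOXOA3-mDBD FSH against GFP vehicle, 1 was higher and 5 lower, beside 13.0% and 22.5% of all genes, at a median of -0.72 against -0.17.

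The genes most like each member were taken by the distance between log2 signals over the 4 arrays, each centred on its own mean, among 8112 other genes above the floor on all of them. With 4 arrays such likeness is a description. Nearest to Inha were the aldehyde dehydrogenase Aldh2 at a distance of 0.10, Slc22a23 at 0.16 and Chchd10 at 0.23, and 32 genes lay within 0.5. Aldh2 had signals of 2085, 837, 5768 and 1743. Nearest to Inhbb were Cgnl1 at 0.42, Plxnc1 at 0.45 and Gfpt2 at 0.48, the 3 genes within 0.5. Nearest to Acvr2a were Gnpda2 at 0.37 and Rp9 and Slc18b1, both at 0.40, and 6 genes lay within 0.5. By their brighter probe sets, Inhba was nearest to the kinase genes Prkcb and Mapk6 and to Coa7 at 0.11 to 0.12, with 260 genes within 0.5, and Fst to B4galt7, Riox1 and Trmt10b at 0.04 to 0.09, with 854. The distance is not scaled to the range of a gene, so that members with a wide range have few genes within 0.5 by construction.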

How the data were processed

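Per the labels, RNA from 4 cultures of granulosa cells was hybridised to 1 rat array each. The authors' deposited values were intensity values on a linear scale. The submitters' processing notes name MAS5, without version or settings. Their 2% trimmed means were 500.1 to 500.2, so no further scaling was applied. The number of arrays limits the precision.

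Platform annotation named a single gene on 20826 probe sets, more than 1 on 436 and no gene on 9780; 57 controls were left out. For each gene the brightest probe set by mean signal was used, and all probe sets of the members. Signals under the floor of 100.5 were raised to it before log2 was taken, and a fold against such a signal is written "at least". A gene was measured if the higher signal exceeded the floor. With 1 array per group no p-value was computed.

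Named were the 5 members, genes of 2 pathway lists at least 2-fold different, and the 3 nearest genes of each member. Members and lists were chosen with earlier results of these data known. Alternatives were 2 other floors, a stricter filter, 3 scalings and 2 other probe set rules. Of the steps, only the 2-fold call was tested on simulated folds, and full recovery was required only without added noise. Promoters came from RefSeq. Python 3.11.15 with pandas 2.3.3 and statsmodels 0.14.6 was used.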

Additional observations from a re-analysis of the deposited data

How the results depend on the processing

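With 1 array per group the depth of evidence is set by the number of arrays, and no replicate could be left out. No paired analysis was possible because each group has 1 array. The counts of members at least 2-fold higher stayed within 1.5 times under every alternative. Of those lower in FOXOA3 FSH against GFP FSH, 3 became 1 with quantile normalization and 1 with loess. In FOXOA3 FSH against FOXOA3-mDBD FSH the count of 1 became 0 with quantile normalization, 0 with loess and 2 with the dimmest probe set of each gene, a choice made after seeing the data. In FOXOA3-mDBD FSH against GFP vehicle the count of 1 became 0 with median centring. For single genes, many values could not change. Member signals all lay above the floor of 100.5, and the higher of each pair above 542.5, so the lower floor and the stricter filter left their ratios as deposited. Inha, Inhbb and Acvr2a have 1 probe set each, so the 2 other probe set rules could not change theirs. Of 240 single-gene values under the alternatives, these included, 217 kept direction and side of the 2-fold threshold. Another 11 fell inside it, 5 passed it in the same direction and 7 that were within 2-fold changed sign. Of these 7, Inhba in FOXOA3 FSH against FOXOA3-mDBD FSH ended past 2-fold, at -1.31 with the dimmest probe set; no value past 2-fold as deposited changed sign. Quantile normalization and loess act by brightness and median centring on all genes alike; the cause of the differences in scale between arrays was not tested. Loess shifted the median of all genes by 0.16 in FOXOA3-mDBD FSH against GFP FSH. There, 1221 genes were higher and 1866 lower as deposited, against 1584 and 1331 with loess and 1517 and 1465 with median centring. In FOXOA3 FSH against FOXOA3-mDBD FSH, 1913 and 932 became 1034 and 1304 with loess and 1315 and 1319 with centring. In FOXOA3-mDBD FSH against GFP vehicle, 1280 and 2215 became 1649 and 1510 with loess and 1620 and 1794 with centring. With the lower floor of 27.4, the genes higher numbered 1087 against 655 in GFP FSH against GFP vehicle, 1981 against 1105 in FOXOA3 FSH against GFP FSH, 1949 against 1221 in FOXOA3-mDBD FSH against GFP FSH, 1980 against 1280 in FOXOA3-mDBD FSH against GFP vehicle, and 1237 against 527 in FOXOA3 FSH against GFP vehicle, where 609 against 397 were lower. With the stricter filter at 542.5, fewer genes were tested, and 695 were higher in FOXOA3 FSH against GFP FSH, 1206 in FOXOA3 FSH against FOXOA3-mDBD FSH and 319 in FOXOA3 FSH against GFP vehicle.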
